A study of Rattus norvegicus with 8 samples.

Results

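The genes described here are those of pulmonary surfactant and of the alveolar type 2 cell that makes it, measured in lungs of rats with and without injurious mechanical ventilation. They are Sftpa1, Sftpb, Sftpc, Sftpd, Abca3, Lamp3, Slc34a2, Napsa, Lpcat1 and Nkx2-1, and each probe set whose platform gene symbol is exactly one of these names was taken. All 10 genes were found, on 13 probe sets (Sftpa1, Sftpb and Abca3 on 2 each), among 20214 probe sets other than controls, and all 13 were among the 16896 tested. Each sample was total RNA of the dorsal-caudal quadrant of 1 rat lung, from male Sprague-Dawley animals of 340 to 400 g. The 6 ventilated rats were given 18 mL/kg at 40 breaths per minute, with 0 cmH2O of end-expiratory pressure, for up to 3 hours, while prone (n = 3) or supine (n = 3), and 2 rats without ventilation were the controls. The protocol names anaesthesia, a tracheotomy and a jugular cannula without setting the controls apart, so whether they had these is not stated. Supine sample titles carry SVt in place of the HVt of the prone ones, although both are labelled High Vt. The number of arrays limits the precision of every value below.

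Surfactant is a film of phospholipid and protein that lowers surface tension in the alveoli. Type 2 cells assemble it in lamellar bodies, which take up phospholipid through the transporter ABCA3 and carry LAMP3 in their membrane, and they release it by exocytosis. The hydrophobic proteins SP-B and SP-C (Sftpb, Sftpc) spread the film, and the collectins SP-A and SP-D (Sftpa1, Sftpd) bind microbes and take part in surfactant turnover. NKX2-1 is a homeodomain transcription factor that binds the promoters of surfactant protein genes.

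RefSeq promoter sequences (build GRCr8, 250 bases before to 50 after the gene's start) were matched for 7 of the 10 genes by symbol. The 3 shown here are those of Sftpb, the gene whose 2 probe sets diverged, of Nkx2-1, the regulator with the largest difference among the genes read by 1 probe set, and of Sftpa1, whose group means lay close together. They lie at chr4:105917338-105917637 (plus strand), chr6:79734818-79735117 (minus strand) and chr16:17042014-17042313 (plus strand). Capitals mark matches, on either strand, to words searched for 5 motifs. These were CTCAAG for NKX2-1, TGTTTAC and, as its common variant, TGTTTGC for FOXA factors, TTGCNNAA for C/EBP factors, TGACTCA for AP-1 and TATAAA for the TATA box.
Sftpb: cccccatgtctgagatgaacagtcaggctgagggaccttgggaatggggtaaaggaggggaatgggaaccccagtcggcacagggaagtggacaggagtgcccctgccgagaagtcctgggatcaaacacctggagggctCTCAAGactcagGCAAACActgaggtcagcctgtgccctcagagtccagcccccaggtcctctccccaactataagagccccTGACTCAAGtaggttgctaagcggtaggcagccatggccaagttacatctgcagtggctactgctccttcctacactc
Nkx2-1: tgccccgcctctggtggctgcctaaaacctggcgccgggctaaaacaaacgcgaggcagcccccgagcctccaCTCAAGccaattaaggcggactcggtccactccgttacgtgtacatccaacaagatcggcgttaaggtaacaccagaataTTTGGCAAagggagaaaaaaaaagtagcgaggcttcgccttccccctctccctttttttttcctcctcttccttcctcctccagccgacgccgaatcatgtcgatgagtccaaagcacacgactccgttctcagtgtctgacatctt
Sftpa1: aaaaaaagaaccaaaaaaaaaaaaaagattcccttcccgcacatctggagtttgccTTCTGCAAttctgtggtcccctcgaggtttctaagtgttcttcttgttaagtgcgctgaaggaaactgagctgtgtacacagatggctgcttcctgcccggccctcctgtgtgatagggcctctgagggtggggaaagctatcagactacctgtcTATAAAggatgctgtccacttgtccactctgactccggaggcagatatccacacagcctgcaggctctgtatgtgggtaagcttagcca

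The Sftpb window held CTCAAG at 110 and at 25 bases before the start, and 15.8% of 33469 promoter windows of this length held that motif. A TGTTTGC match on the opposite strand began 98 bases before the Sftpb start (4.88% of windows), and a TGACTCA match at 28 bases overlapped the nearer CTCAAG (4.63% of windows). The Nkx2-1 window held CTCAAG at 177 bases and TTGCNNAA at 97 bases, the latter in 10.6% of windows. In that window the bases after the start open with ATG, the letters of a start codon. Its distances may therefore be counted from the coding start, and whether transcription begins there was not checked. The Sftpa1 window held TTGCNNAA at 194 bases and TATAAA at 39 bases (14.2% of windows), and no match for NKX2-1. The FOXA word TGTTTAC, held by 3.78% of windows, was in none of the 7. The other 4 windows (Abca3, Lamp3, Lpcat1 and Slc34a2) held no match apart from TTGCNNAA at 64 bases in Slc34a2, read on both strands of the same bases. A match is a run of letters and not a measured binding site.

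Degraded RNA reads higher at the 3′ than at the 5′ end of a control transcript. That gap was 9.10 log2 units for beta-actin on supine replicate 3 and 3.16 to 4.64 elsewhere, and for GAPDH it was 8.41 there and 0.70 to 1.92 elsewhere. Array medians lay between 7.77 and 7.95 log2 units. Prone replicate 2 and supine replicate 3 also carried cardiac muscle markers, given below with the results they accompany. All values are log2 GCRMA summaries, so a difference of 1 is a doubling or halving of signal, and values of different probe sets are not compared with each other. The tissue is a mixture of cells, in which fewer type 2 cells and less RNA per type 2 cell cannot be told apart.

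The surfactant protein genes, apart from Sftpb, averaged close to control in both positions, and none passed. Sftpc, the gene most particular to type 2 cells, read 15.41 and 15.51 on the controls, 15.25, 15.02 and 15.28 on prone and 15.17, 15.28 and 15.36 on supine replicates 1 to 3. Every ventilated array lay below both controls, by a small margin. The mean of the ventilated groups was 0.23 ± 0.23 (SE) lower, or 85.2% of control, with a 95% interval from 58.7% to 124% (limma, adjusted p = 0.607). These values lie near the top of the scale, where the highest value on an array was 15.50 to 15.72, and a ceiling on the signal would compress differences there.

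The collectin genes overlapped between groups. Sftpa1, on probe set 1387460_at, read 14.69 and 14.88 on the controls, 14.78, 14.23 and 14.63 on prone and 14.41, 14.93 and 14.56 on supine replicates 1 to 3. Its other probe set, 1369107_at, averaged 13.89 ± 0.14 (SD, n = 2) in controls, 13.89 ± 0.23 (n = 3) in prone and 14.06 ± 0.20 (n = 3) in supine lungs. Sftpd read 13.54 and 13.63 on the controls, 13.63, 13.65 and 13.59 on prone and 13.02, 13.63 and 13.75 on supine arrays. Its prone values spanned the narrowest range of all 13 probe sets, and supine replicate 1 alone was low. The ventilated lungs held 97.3% of the control Sftpd signal (95% interval 62.5% to 152%), and adjusted p was 0.949 for Sftpd and 0.722 and 0.874 for the Sftpa1 probe sets.

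Sftpb gave opposite pictures on its 2 probe sets. On 1370980_at it read 13.91 and 14.11 on the controls, 13.79, 13.44 and 13.99 on prone and 13.60, 13.88 and 13 on supine replicates 1 to 3, which put the 3 supine arrays below both controls. On 1384664_at it read 7.61 and 7.04 on the controls, 8.64, 6.58 and 9.27 on prone and 7.80, 9.18 and 11.42 on supine replicates 1 to 3, which put the 3 supine arrays above both controls. The supine difference was -0.51 ± 0.35 (adjusted p = 0.499) on the first and 2.14 ± 1.12 (adjusted p = 0.393) on the second. The extreme array for both was supine replicate 3, 1.01 below and 4.10 above the control mean. Without that array the 2 differences were -0.26 and 1.17, and with the replicate block the second was 1.38. On 1384664_at the prone difference was 0.84, and 0.07 with the replicate block. The part of RNA degradation in this divergence was not tested, and where in the transcript each probe set lies was not analysed here. Prone replicates 1 and 3 and supine replicate 2 also read 1.31, 1.95 and 1.86 above the control mean on 1384664_at. Their beta-actin gaps were 3.52, 3.32 and 3.16, against 3.31 and 4.06 on the controls. For GAPDH the gaps of these arrays were 1.17, 0.86 and 0.75, against 0.70 and 1.06 on the controls. Prone replicate 2, with gaps of 3.21 (beta-actin) and 0.70 (GAPDH), read 0.75 below the control mean on that probe set. Supine replicate 1, with gaps of 4.64 and 1.92, read 0.48 above it.

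**Figure D1:**
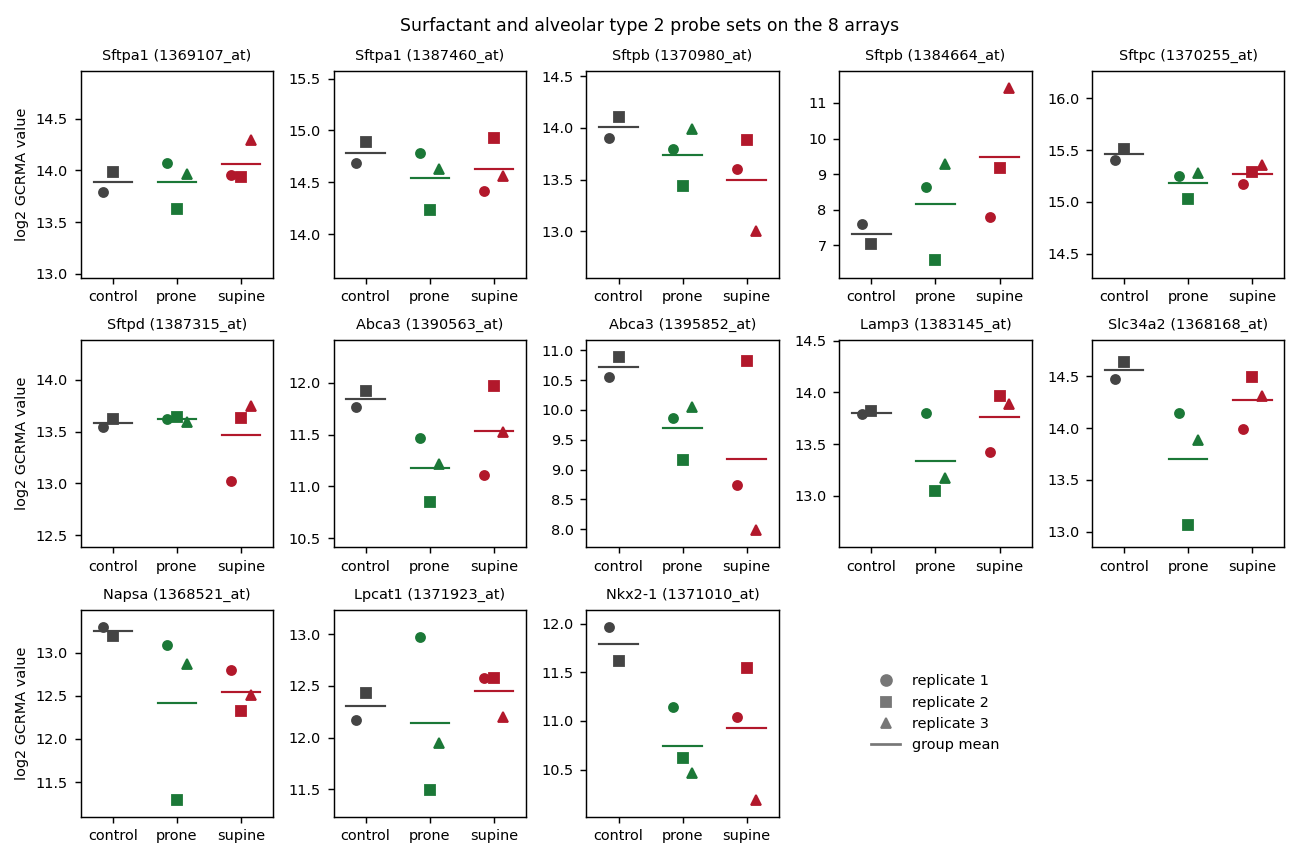
Log2 GCRMA values (vertical axes, a separate range for each panel) of the 13 probe sets on the control, prone and supine arrays. Each symbol is 1 array, shaped by replicate number, and lines are group means; Nkx2-1, Napsa and Sftpc are the panels in which all 6 ventilated arrays lie below both controls, and Sftpb 1384664_at reaches 11.42 on supine replicate 3.

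Abca3 read 11.77 and 11.92 on the controls on probe set 1390563_at, 11.46, 10.85 and 11.22 on prone and 11.11, 11.97 and 11.53 on supine replicates 1 to 3. The prone arrays lay below both controls and the supine arrays overlapped them. Its prone mean was 63.0% of control (-0.67 ± 0.35 log2, adjusted p = 0.371) and its supine mean 80.7% (-0.31 ± 0.35, adjusted p = 0.676).

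The other Abca3 probe set, 1395852_at, read 10.54 and 10.88 on the controls, 9.87, 9.16 and 10.05 on prone and 8.75, 10.81 and 7.99 on supine replicates 1 to 3. It differed by -1.02 ± 0.77 in prone and by -1.53 ± 0.77 in supine lungs (adjusted p = 0.532 and 0.380). Supine replicate 2 read as the controls did, and without it the supine difference was -2.34 (adjusted p = 0.0626). Without supine replicate 3, which had the wide 3′ to 5′ control gaps and gave the lowest value, it was -0.93 (adjusted p = 0.658).

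Lamp3 read 13.79 and 13.82 on the controls, 13.80, 13.04 and 13.17 on prone and 13.42, 13.97 and 13.89 on supine replicates 1 to 3. Prone replicates 2 and 3 were low and the other arrays lay near the controls or, on supine replicate 1, between. The prone difference was -0.47 ± 0.34 (adjusted p = 0.515) and the supine one -0.04 ± 0.34 (adjusted p = 0.955). Lamp3 is also a marker of mature dendritic cells. Of 7 other listed markers of those cells 3 were tested (Ccl22, Cd83 and Cd86). Their median difference was 1.30 in prone and 0.50 in supine lungs, both being the values of Cd83, while Cd86 differed by -0.15 and 0.45. Ccl22 read 8.92 on prone replicate 1 and 8.49 on supine replicate 1, and 2.10 to 3.08 elsewhere.

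Lpcat1, the acyltransferase that remodels phosphatidylcholine to its surfactant form, read 12.17 and 12.43 on the controls, 12.98, 11.50 and 11.95 on prone and 12.58, 12.58 and 12.20 on supine replicates 1 to 3. The prone arrays spread on both sides of the controls. The ventilated mean was 99.5% of control, with a 95% interval from 52.0% to 190% (adjusted p = 0.993).

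Slc34a2 and Napsa, both abundant in type 2 cells, averaged lower after ventilation. Slc34a2, which encodes the phosphate transporter NaPi-IIb, read 14.48 and 14.64 on the controls, 14.15, 13.06 and 13.88 on prone and 13.99, 14.50 and 14.31 on supine replicates 1 to 3. All 3 prone arrays were below both controls, and supine replicate 2 reached them. Its prone mean was 55.1% of control (-0.86 ± 0.38, adjusted p = 0.297) and its supine mean 81.7% (adjusted p = 0.722). Without prone replicate 2 the prone difference was -0.54.

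Napsa, the aspartic protease that takes part in SP-B processing, read 13.30 and 13.20 on the controls, 13.09, 11.30 and 12.86 on prone and 12.80, 12.32 and 12.51 on supine replicates 1 to 3. Each ventilated array lay below both controls, and prone replicate 2 stood 1.95 below their mean. The prone difference was -0.83 ± 0.53 (adjusted p = 0.463) and shrank to -0.27 ± 0.33 without prone replicate 2. In supine lungs it was -0.71 ± 0.53, or 61.3% of control (adjusted p = 0.529).

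Nkx2-1 showed the largest difference among the genes read by 1 probe set. It read 11.97 and 11.61 on the controls, 11.14, 10.62 and 10.46 on prone and 11.05, 11.54 and 10.19 on supine replicates 1 to 3. All 6 ventilated arrays were below both controls, although supine replicate 2 was only just so. The prone mean was 48.3% and the supine mean 54.9% of control (-1.05 ± 0.44 and -0.86 ± 0.44 log2). The 2 ventilated groups together stood at 51.5% of control (-0.96 ± 0.40, 95% interval 27.1% to 98.0%, unadjusted p = 0.0448), which did not pass over all probe sets (adjusted p = 0.251). The blocked difference was -0.70 (adjusted p = 0.317). Leaving out supine replicate 3, the array with the wide control gaps, changed the supine difference to -0.50 and the difference of all ventilated lungs to -0.77. Without supine replicate 2 they were -1.17 and -1.11 (adjusted p = 0.165 and 0.127).

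Across the 10 genes, 0 of 13 probe sets passed at an adjusted p under 0.05 in any comparison by limma. Over all probe sets 0.0533% passed in prone against control, 0.0533% in supine against control and 0.142% in all ventilated against control lungs, so this test called few probe sets of any kind. With the replicate number as a block those shares of 9, 9 and 24 probe sets became 0, 0 and 0. Below an unadjusted p of 0.05, in either direction, stood 1 of 13 in prone lungs (Nkx2-1, which was lower), against 17.7% of all probe sets. Of lower probe sets there were 0 of 13 in supine lungs (8.05% of all) and 1 of 13, again Nkx2-1, in all ventilated lungs (10.6% of all). Every prone array lay below both controls for 6 of the 13 probe sets, against 27.7% of all probe sets. Every supine array did so for 4 of 13 (21.8% of all) and lay above both for 1 of 13 (20.0% of all). All 6 ventilated arrays lay below both controls for 3 of 13 (16.7% of all). No test of these counts against the whole table was run.

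With the brighter probe set of each gene, 9 of 10 were below 0 in prone lungs, 9 of 10 in supine lungs and 10 of 10 in the mean of both. Of the 13 probe sets 11, 10 and 11 were below 0, against 56.5%, 53.8% and 56.0% of all tested probe sets. The choice of the brighter one leaves out Sftpb 1384664_at, Sftpa1 1369107_at and Abca3 1395852_at. In the mean of both groups these differed by 1.49, 0.09 and -1.27. The medians of the 10 genes were -0.37, -0.24 and -0.32, and those of all tested probe sets -0.12, -0.07 and -0.10. Averaging both probe sets of Sftpa1, Sftpb and Abca3 gave medians of -0.37, -0.15 and -0.24. The first 2 comparisons share their controls. When each array was given a weight for its own spread (limma's array weights), 5 of 13 probe sets passed in prone lungs, those of Nkx2-1 (-1.18, adjusted p = 0.0111), Slc34a2 (-1.11, adjusted p = 0.0129), Abca3 1390563_at (-0.81, adjusted p = 0.0197), Lamp3 (-0.65, adjusted p = 0.0282) and Napsa (-1.23, adjusted p = 0.0377). In the mean of both groups 2 passed, Nkx2-1 (adjusted p = 0.0222) and Abca3 1395852_at (adjusted p = 0.0474). The same setting called 33.9% of all probe sets in prone lungs and 27.8% in the mean of both groups. It weighted both controls at 4.67, prone replicates 1 to 3 at 0.28, 1.81 and 1.19 and supine replicates 1 to 3 at 0.39, 0.50 and 0.39. Among ventilated arrays the highest weight thus went to prone replicate 2, which held the lowest value of most of these probe sets.

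**Figure D2:**
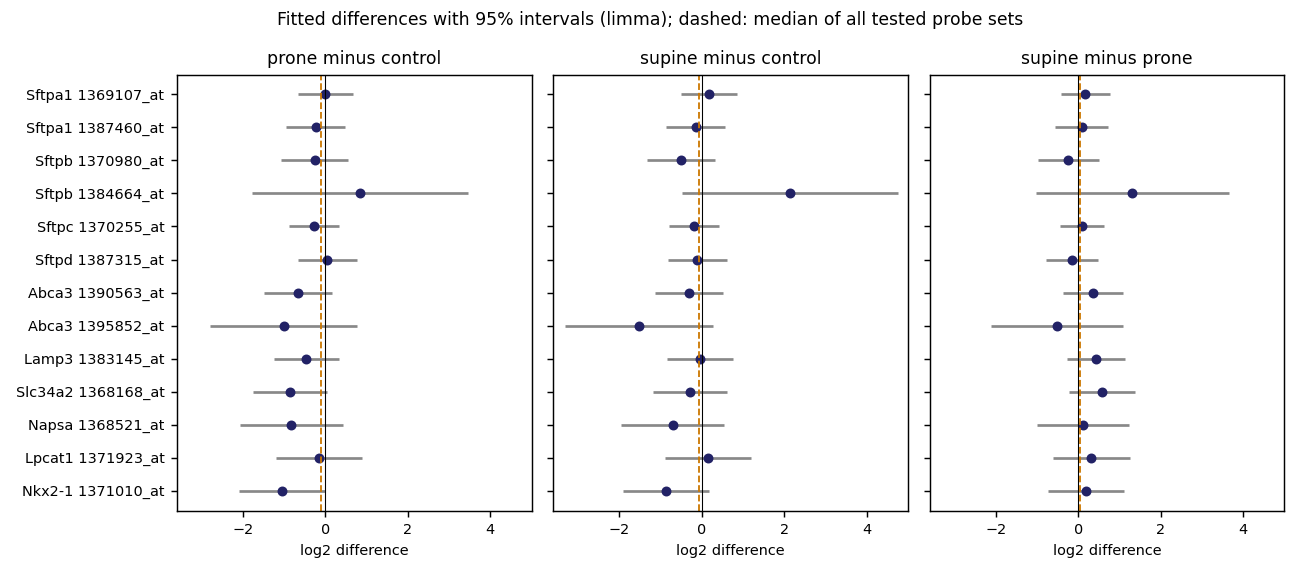
Fitted log2 differences (points) with 95% intervals (bars) for the 13 probe sets in 3 comparisons, with the median of all tested probe sets as a dashed line. The interval of Nkx2-1 in prone against control is the only one of the 39 shown that leaves out 0.

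The arrays also compare body position. Supine against prone, 0 of 13 probe sets passed, as did 0% of all probe sets (limma, adjusted p under 0.05). Below an unadjusted p of 0.05 the count was also 0 of 13, where 2.60% of all probe sets were higher and 1.49% lower in supine lungs. The control mean was highest, the supine mean next and the prone mean lowest for 7 of the 13 probe sets (Sftpa1 1387460_at, Sftpc, Abca3 1390563_at, Lamp3, Slc34a2, Napsa and Nkx2-1), and neighbours in that order did not differ beyond the test's threshold. How many of all probe sets take this order was not counted. Without prone replicate 2, Sftpa1 1387460_at differed from control by -0.08 in prone and -0.15 in supine lungs. Napsa then differed by -0.27 and -0.71, so both left this order. Slc34a2 had the smallest p, with supine lungs at 148% of prone (0.57 ± 0.34, 95% interval 85.3% to 258%, adjusted p = 0.942). Over the 10 genes the median of supine minus prone was 0.15, and without prone replicate 2 it was -0.0009.

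Prone replicate 2 held the lowest value of 9 of the 13 probe sets. Its 10 genes had a median 0.78 below the control mean, against 0.18 and 0.37 below on prone replicates 1 and 3 and 0.42, 0.01 and 0.24 below on supine replicates 1 to 3. On the same array the 6 tested club cell markers, genes of the secretory cells of the airways, had a median 3.89 above the control mean, against -0.62 to 1.52 on the other 5 ventilated arrays. Of the 6, Bpifa1 read 13.71 (2.96 to 5.55 elsewhere), Muc5b 11.44 (4.51 to 9.08 elsewhere) and Scgb3a1 14.29 (7.93 to 12.64 elsewhere). Cyp2f4 read 12.79 (6.63 to 11.38 elsewhere) and Aldh1a1 14.20 (12.01 to 14.02 elsewhere). The highest value elsewhere was on supine replicate 2 for each of these genes. Scgb1a1 was at 15.35 to 15.72 on every array. The 6 ciliated cell markers had a median of 1.84 on prone replicate 2, against -0.36 to 0.56 on the other ventilated arrays. All 4 tested cardiac muscle markers were high on prone replicate 2 (median 6.47 above controls) and on supine replicate 3 (5.40), with Myh6 at 9.87 and 8.87 against 2.69 to 2.79 elsewhere, the low end of the scale. Myl4 differed from the other markers in reading 6.5 on prone replicate 1 and 6.28 on supine replicate 1, above its 5.48 on supine replicate 3. The part of these other cells in the low readings of prone replicate 2 was not tested. Without prone replicate 2 the median of the 10 genes was -0.23 in prone lungs, and without it and supine replicate 3 it was -0.21 in all ventilated lungs.

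**Figure D3:**
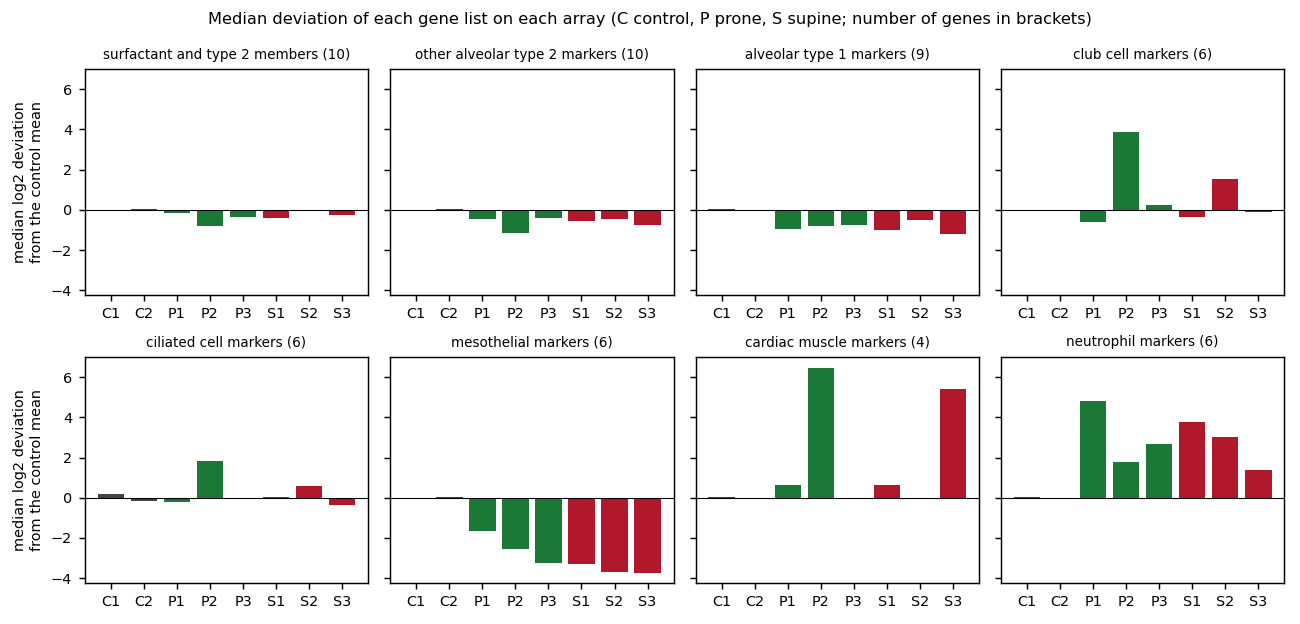
Median log2 deviation from the control mean (vertical axis) of 8 gene lists on each array, with the number of genes in brackets. The surfactant and type 2 genes reach -0.78 on P2, the array on which club cell markers stand at 3.89 and cardiac markers at 6.47.

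The 10 tested genes of a second list of type 2 markers had a median of -0.94 in prone and -0.45 in supine lungs, with 6 and 5 of 10 below both controls on every array, against 27.7% and 21.8% of all probe sets. In the mean of both groups Cd36, a fatty acid transporter, differed by -1.66 ± 0.86 (adjusted p = 0.335) and the mucin Muc1 by -1.27 ± 0.41 (adjusted p = 0.174). Chi3l1, a chitinase-like protein gene that macrophages also express, was 1.55 ± 0.50 higher (adjusted p = 0.175), and Dlk1 stood at -0.02 ± 0.78. The 9 markers of type 1 cells, the flat cells of gas exchange, had medians of -0.83 and -0.85, and 8 of 9 lay below both controls on every array in each position, against the same shares of all probe sets. Among them the water channel Aqp5 differed by -1.52 ± 0.46 (adjusted p = 0.157), Akap5 by -1.79 ± 0.80 and Hopx by -0.37 ± 0.27, while Pdpn was 0.60 ± 0.31 higher. Counts in gene lists, here and below, take the brightest probe set of each gene, whereas the shares beside them cover all tested probe sets. No test of the difference between these lists and the surfactant genes was run.

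Of 21 tested genes of surfactant lipid synthesis and transport, 10 were above and 11 below 0 in the mean of both ventilated groups (median -0.03), with 0 past the test. Scd, the desaturase that makes monounsaturated fatty acids, read 10.35 and 11.25 on the controls, 8.52, 7.26 and 7.98 on prone and 8.43, 8.18 and 7.88 on supine replicates 1 to 3. The groups did not overlap, and the ventilated mean was 14.8% of control (-2.76 ± 0.41, adjusted p = 0.0604). Srebf1, a transcription factor of lipid synthesis, differed by -1.24 ± 0.34, whereas the choline kinase gene Chkb and the phosphatidate phosphatase gene Lpin2 were 1.19 ± 0.40 and 1.02 ± 0.30 higher.

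Of the genes of lamellar body traffic and secretion, 14 of 18 had a ventilated difference below 0 (median -0.42), against 56.0% of all probe sets, and 0 passed the test. Rab3d, a small GTPase of secretory vesicles, read 9.998 and 10.02 on the controls, 8.06, 7.99 and 8.11 on prone and 8.71, 8.86 and 7.81 on supine replicates 1 to 3, and the groups did not overlap (-1.75 ± 0.32, adjusted p = 0.0846). Vamp2, a vesicle SNARE, differed by -1.24 ± 0.88 and read 6.30 on supine replicate 3, the array with the wide control gaps, against 9.23 to 10.30 elsewhere. Adora2b, an adenosine receptor, was 1.54 ± 1.11 and Ap3b1, an adaptor subunit, 0.45 ± 0.28 higher.

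Transcription factors of surfactant genes went both ways, with 7 of 17 above and 10 below 0 and 0 past the test (median -0.55). Etv5, an ETS factor of type 2 cells, read 9.77 and 9.92 on the controls, 7.90, 6.12 and 7.51 on prone and 6.88, 8.66 and 5.09 on supine replicates 1 to 3. Its ventilated arrays were all below the controls and its difference was -2.82 ± 0.88 (adjusted p = 0.165). Nfib differed by -2.69 ± 1.18 (adjusted p = 0.271). Stat3, which cytokines activate, and the epithelial ETS factor Elf3 were 1.52 ± 0.38 and 1.46 ± 0.45 higher (adjusted p = 0.120 and 0.161). The 5 tested genes of surfactant clearance and GM-CSF signalling had a median of -0.60, with the nuclear receptor Pparg at -1.23 ± 0.55, Pla2g15 at -0.68 ± 0.40, Csf2 at -0.51 ± 0.86 and Csf2ra at 0.81 ± 0.81.

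Markers of other cell types were read in the same way. Medians of the ventilated difference were -2.91 for 6 mesothelial, -2.28 for 7 lymphocyte, -0.51 for 7 endothelial, -0.15 for 9 general epithelial and 0.00 for 8 macrophage markers. They were 0.30 for ciliated and 0.79 for club cell, 0.90 for mature dendritic cell, 2.36 for cardiac muscle and 2.59 for 6 neutrophil markers. Of these genes 2 passed, the mesothelial markers Bnc1 (-3.75 ± 0.25, adjusted p = 0.00757) and Gpm6a (-3.02 ± 0.35, adjusted p = 0.0390), both of which fell. With the replicate number as a block 0 probe sets passed, so neither call held.

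The gene whose levels followed the mean of the 10 genes most closely over the 8 arrays was Prrg3 (Pearson r = 0.970), ahead of the kinase gene Sgk1 (0.967), Pitrm1 (0.962), Hist2h2be (0.958) and Pphln1 (0.955), out of 10230 other genes. Sgk1 read 12.56 and 12.31 on the controls, 12.33, 11.07 and 11.83 on prone and 11.74, 12.33 and 11.98 on supine replicates 1 to 3, so its lowest value was also on prone replicate 2. For Sftpc alone the closest were Pcnp (0.988), Cadps2 (0.984), Hgfac (0.974), Mst1 (0.962) and Ptpn11 (0.961). With 8 arrays in 3 groups and this many genes, values of this size describe the likeness of profiles in these arrays only.

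**Figure D4:**
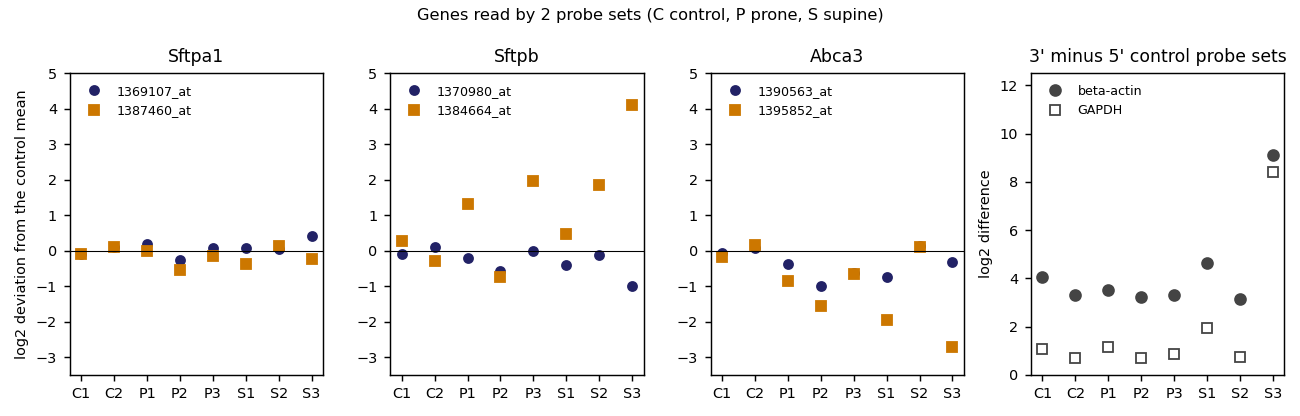
Log2 deviation from the control mean (vertical axis, first 3 panels) of both probe sets of Sftpa1, Sftpb and Abca3 on each array, and the 3′ minus 5′ log2 difference of the beta-actin and GAPDH control probe sets (last panel). On S3 (supine replicate 3) the Sftpb probe sets stand at 4.10 and -1.01, Abca3 1395852_at at -2.72, and the control gaps at 9.10 and 8.41.

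The 3 genes read by 2 probe sets differed in how well these kept together. The deviation from the control mean on the dimmer probe set minus that on the brighter one was 0.64 for Sftpa1, -2.40 for Abca3 and 5.11 for Sftpb on supine replicate 3. Among 2246 genes with at least 2 tested probe sets, the 2 brightest were compared in the same way. On that array 59.9%, 12.4% and 1.38% of them stood at least as far apart. On supine replicate 2 the gap was -0.10 for Sftpa1, -0.02 for Abca3 and 1.98 for Sftpb, with 84.7%, 95.4% and 0.98% of genes at least as far apart. On prone replicates 1 to 3 it was 1.53, -0.18 and 1.96 for Sftpb and -0.46, -0.56 and -0.03 for Abca3, and on supine replicate 1 it was 0.88 for Sftpb and -1.23 for Abca3. The shares of genes at least as far apart on prone replicates 1 to 3 were 5.97%, 80.9% and 4.5% for Sftpb and 52.2%, 49.9% and 96.2% for Abca3. For supine replicate 1 they were 43% for Sftpb and 28.5% for Abca3. The part of RNA degradation in these gaps was not tested.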

How the data were processed

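Lung RNA (300 ng of total RNA per sample) was labelled with biotin and measured on Affymetrix 1-colour rat arrays. The values the authors deposited are log2 GCRMA summaries, per the submitters' processing notes (GCRMA, Partek 6.5) and their range; GCRMA subtracts background by probe sequence, quantile-normalizes and summarises each probe set. Any filter or detection call is not given in the sources.

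Groups came from the labels (2 control, 3 prone, 3 supine). The 28 control probe sets were set aside, and the 16896 of 20214 others at log2 5 or above on at least 2 arrays were tested. Group means were estimated from all 8 arrays with limma 3.58.1 (R 4.3.3), with 5 residual and 2.51 prior degrees of freedom; tests were two-sided with Benjamini-Hochberg adjustment over all probe sets within a comparison, and a call needed an adjusted p under 0.05. A ± gives the model's standard error, or the SD where named. P-values measure the spread between these samples, which the titles call biological replicates. "Ventilated" is the mean of the prone and supine group means. The code of the fit was run on simulated arrays with independent noise of equal spread. That run cannot show its power on arrays of unequal spread, such as these.

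Symbols came from GEO's platform annotation; all 10 members had the same symbol in RefSeq by gene ID. The members and the 16 other gene lists (174 genes, 142 tested) were chosen with earlier results of these data known. The brightest probe set stood for a gene in lists, and the text names every member and, for the lists of surfactant and alveolar genes, the 2 genes with the highest and the 2 with the lowest ventilated difference, whatever its sign. From the remaining lists it names those that bear on single arrays or passed the test; of these Scgb1a1, Scgb3a1 and Gpm6a fall outside that rule and were chosen after their values were seen. Likeness was Pearson's r with the centred mean of the 10 genes, or with Sftpc.

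Same-numbered arrays of different groups deviated together in all 7 pairs (r = 0.11 to 0.72, against -0.59 to 0.40 in 14 other pairs). These pairs are not independent, because with 2 controls the deviations of 1 mirror those of the other. Prone replicate 3 with supine replicate 2 (0.40) exceeded every same-numbered pair but prone replicate 1 with supine replicate 1 (0.72). The fit with the replicate number as a block is given where it changes a count or a call. The titles give the numbers, and what they share is not stated.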

Additional observations from a re-analysis of the deposited data

How the results depend on the processing

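None of the 13 probe sets changed its call under any alternative except array weights, which gave 7 calls among 871 values over 17 alternatives; signs differed from the main value in 40. No reversed sign against controls belonged to Nkx2-1, Slc34a2, Abca3, Sftpc, Napsa, Sftpb or the brighter Sftpa1 probe set. For Sftpb the brighter probe set stayed below 0 and the dimmer stayed above 0. The median of supine minus prone over the 10 genes was 0.15 and turned to -0.0009 without prone replicate 2. It was 0.42 without prone replicate 1 and 0.44 with array weights. Counts of all probe sets past the test were less stable. Against 9 in prone lungs they were 0 at a filter of log2 7 and with an intensity trend, 35 without a filter, 119 with only the compared groups, 5724 with array weights and 0 with the replicate block, and leaving out arrays gave 0 to 119. Against 9 in supine lungs they were 0 at log2 7, with the trend, with only the compared groups and with the replicate block, 18 without a filter and 36 with array weights, and 0 to 154 with arrays left out. Against 24 in all ventilated lungs they were 5 at log2 7, 118 without a filter, 11 with the trend, 4704 with array weights and 0 with the replicate block, and 0 to 385 with arrays left out. Supine against prone gave 0, and 0 to 3 with arrays left out. The causes were not tested. The fit without prone replicate 2 and supine replicate 3 together was chosen after seeing the data. The block changed no call of a member. With 2 or 3 arrays per group, all intervals are wide: a change of the surfactant genes within them was not detectable here.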
